A study of Mus musculus with 6 samples.

Results

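The STAT transcription factors and the SOCS inhibitors, the genes that carry a cytokine signal from the cell surface to the nucleus and then shut it off, were measured by RNA sequencing in sorted mouse bone marrow cells. The set comprised 9 genes chosen by symbol, 6 STAT genes (Stat2, Stat3, Stat4, Stat5a, Stat5b and Stat6) and 3 inhibitors (Cish, Socs1 and Socs3). All 9 were present among the 30733 symbols of the deposited tables. One group was MHCII-hi haematopoietic stem cells, as labelled, from wild-type (WT) mice, with a high surface level of MHC class II, the molecule that shows peptides to CD4 T cells. The other was MHCII-lo haematopoietic stem cells, also WT. Both groups came from mice given 5 Gy of total body irradiation, and each had 3 libraries. No library from unirradiated mice was used here, and the sort gates, the age of the mice, the time after irradiation and any pooling of mice were not given in the sources used here.

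A cytokine that binds its receptor activates Janus kinases (JAKs) held on the receptor tail, and these phosphorylate STAT proteins, which pair up, enter the nucleus and bind DNA. STAT2 serves type I interferons, STAT3 the interleukin-6 family and G-CSF, STAT4 interleukin-12, STAT5A and STAT5B interleukin-2, interleukin-3, GM-CSF, erythropoietin and thrombopoietin, and STAT6 interleukin-4 and interleukin-13. CIS (the product of Cish), SOCS1 and SOCS3 are made in response to these signals and block the receptor or the kinase, closing a feedback loop. RNA levels do not measure STAT phosphorylation, which carries the signal.

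Values are FPKM (fragments counted per length of transcript and per depth of library), given as mean ± SD with n = 3 libraries a group. A log2 change is the MHCII-hi mean less the MHCII-lo mean of log2(FPKM + 1), and adjusted p-values come from limma with Benjamini-Hochberg adjustment over the 12110 genes that averaged at least 1 FPKM. No label ties the replicates to separate animals, so the tests weigh the differences against a spread that may be technical. Depth was estimated at 2.05e+07 to 3.28e+07 fragments in MHCII-hi and 2.27e+07 to 2.46e+07 in MHCII-lo libraries from the smallest steps in the values. In bulk RNA, fewer cells of a type and less RNA per cell cannot be told apart. The sort was visible in the RNA: the 4 genes Cd74, H2-Eb1, H2-Ab1 and H2-Aa together summed to between 563.3 and 581.3 FPKM in MHCII-hi and between 21.2 and 21.5 FPKM in MHCII-lo libraries. Of the stem cell markers Mecom, Fgd5, Procr and Slamf1, none reached 1 FPKM in any library, and the highest single value was 0.72 FPKM.

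MHCII-hi cells held more Stat2, Stat4, Stat5a, Stat5b and Cish RNA, less Stat3 and slightly less Stat6 RNA, and nearly equal Socs3 RNA. Among 8 members with a test, 5 passed as higher and 2 as lower in MHCII-hi, where 25.5% of all tested genes passed as higher and 33.1% as lower (58.6% in either direction). Cish reached the expression minimum through its MHCII-hi libraries alone, so its call could only be upward, and without it 4 of 7 were higher and 2 lower. Socs1 lay under the expression minimum and was read by value. For 7 of these 8, no MHCII-hi library lay within the range of the MHCII-lo libraries (5 above and 2 below), a separation that 65.8% of all tested genes showed (29.0% above and 36.8% below). The median log2 change of the 8 genes was 0.26, beside -0.04 over all tested genes. Immunoglobulin RNA took between 23.4% and 23.7% of summed FPKM in MHCII-hi and about 0.5% in MHCII-lo libraries, and scaling without it moved the median change of all genes upward by 0.15. Under that scaling the same 5 genes were higher, 40.5% of all tested genes were higher and 17.6% lower, and no STAT or SOCS gene passed as lower. With immunoglobulin genes left out by their share of FPKM times length, 5 members were higher and 1 lower, against 31.6% and 25.6% of all tested genes.

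**Figure D1:**
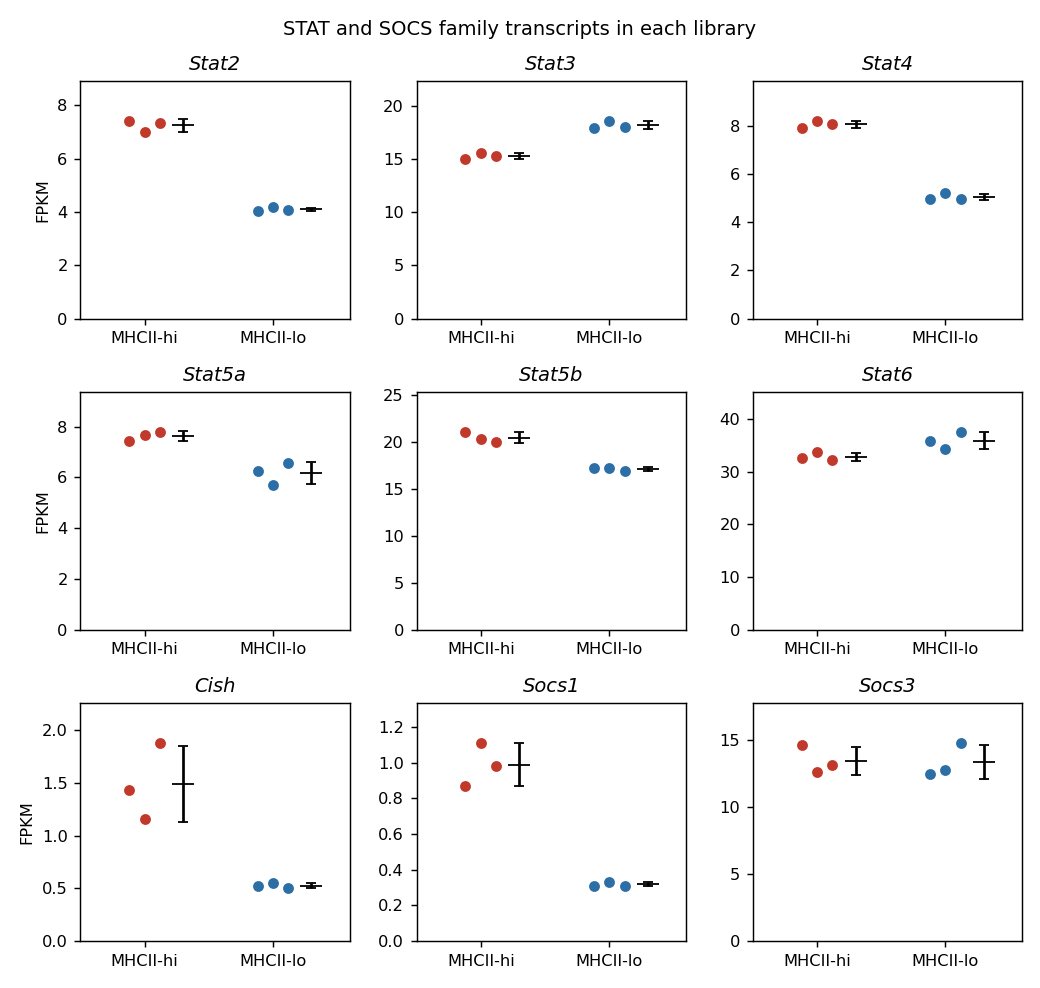
FPKM (vertical axes, each from 0) of the 6 STAT and 3 SOCS family genes in the 3 MHCII-hi libraries (red points, left) and the 3 MHCII-lo libraries (blue points, right), with the mean and SD as black bars. Stat2, Stat4, Stat5a, Stat5b, Cish and Socs1 lie higher in every MHCII-hi library, Stat3 and Stat6 lie lower, and Socs3 overlaps between 12.62 and 14.63 FPKM in MHCII-hi and 12.48 and 14.82 FPKM in MHCII-lo.

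Stat2 encodes a STAT of ISGF3, the complex that switches on type I interferon genes (chromosome 10, 128270559 to 128292849, GRCm38). Stat2 read 7.42, 6.98 and 7.33 FPKM in MHCII-hi libraries, against 4.03, 4.17 and 4.08 FPKM in MHCII-lo libraries. Every MHCII-hi library lay above every MHCII-lo library, and the spread within a group was small. The means were 7.24 ± 0.232 in MHCII-hi and 4.09 ± 0.0709 FPKM in MHCII-lo, a 1.77-fold difference, and the log2 change was 0.69 (SE 0.04, limma adjusted p = 1.78e-05). Stat2 was higher under every scaling tried, with log2 changes between 0.64 and 0.84.

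Stat4, the transducer of interleukin-12 that is known for driving interferon gamma production in T and NK cells (chromosome 1, 51987148 to 52107189), changed to a like extent. It stood at 7.91, 8.22 and 8.08 FPKM in MHCII-hi and 4.97, 5.21 and 4.96 FPKM in MHCII-lo libraries. The groups were far apart relative to their spread, with means of 8.07 ± 0.155 in MHCII-hi and 5.05 ± 0.142 FPKM in MHCII-lo, a 1.6-fold difference. The log2 change was 0.59 (SE 0.04, limma adjusted p = 3.06e-05) and stayed between 0.54 and 0.74 across scalings. Of the tested genes, 91.8% had a lower change than Stat4 and 93.3% a lower change than Stat2. T and NK cell markers moved with Stat4: 11 of the 11 tested were higher, the 12 listed summed to between 96.9 and 103 FPKM in MHCII-hi and between 28.7 and 30.3 FPKM in MHCII-lo, and the T cell receptor chain Trac stood at 10.6 ± 0.829 in MHCII-hi and 2.74 ± 0.691 FPKM in MHCII-lo. Over all tested genes 25.5% were higher. The markers Cd28, Klrb1c and Ncr1 reached the minimum through MHCII-hi alone, so their calls could only be upward. In MHCII-lo they averaged 0.677, 0.993 and 0.667 FPKM. No marker of the T and NK cell list was at 0 in all libraries of a group, and the part of that list in the Stat4 difference was not tested.

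Stat5a and Stat5b encode near-identical partners that serve most blood cell growth factors, and they lie beside each other on chromosome 11 (Stat5b at 100780731 to 100850724, Stat5a at 100859351 to 100885169). Stat5b was the more abundant, at 21.05, 20.27 and 19.94 FPKM in MHCII-hi and 17.16, 17.22 and 16.88 FPKM in MHCII-lo libraries. Its log2 change was 0.24 (SE 0.03, limma adjusted p = 7.00e-04). Stat5a stood at 7.42, 7.69 and 7.80 FPKM in MHCII-hi and 6.24, 5.70 and 6.58 FPKM in MHCII-lo libraries, and its log2 change was 0.27 (SE 0.06, limma adjusted p = 0.00527). Both were higher without overlap between the groups, by small amounts. Since the genes are close in sequence, how reads were divided between them is uncertain. The ratio of Stat5b to Stat5a, which does not depend on library scaling, was 2.84, 2.64 and 2.56 in MHCII-hi and 2.75, 3.02 and 2.57 in MHCII-lo. These ratios overlapped (log2 difference -0.05, two-sided exact permutation p = 0.6, the smallest possible being 0.1 with 3 against 3). Without MHCII-lo replicate 2 that difference was 0.01.

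Stat3, the STAT of interleukin-6 and G-CSF, went the other way and is the next gene along from Stat5a (chromosome 11, 100885098 to 100939540). Stat3 stood at 15, 15.51 and 15.28 FPKM in MHCII-hi, against 17.94, 18.59 and 17.97 FPKM in MHCII-lo libraries. All MHCII-hi libraries were lower, with means of 15.3 ± 0.255 in MHCII-hi and 18.2 ± 0.367 FPKM in MHCII-lo. The log2 change was -0.24 (SE 0.03, limma adjusted p = 7.31e-04). Scaled without immunoglobulin genes it was -0.07 (limma adjusted p = 0.102). With immunoglobulin genes left out by their share of FPKM times length it was -0.16 (limma adjusted p = 0.00452). Stat3 and Stat5a overlap tail to tail by 72 bases on opposite strands, and the use of strand in counting is not given in the sources used here. Neutrophil markers moved with Stat3: 12 of 12 were lower, and they summed to between 15547.7 and 15941.7 FPKM in MHCII-hi and between 37739.4 and 38423.7 FPKM in MHCII-lo. Over all tested genes 33.1% were lower. The part of the neutrophil markers in the Stat3 difference was not tested.

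Stat6, the STAT of interleukin-4 and interleukin-13 (chromosome 10, 127642986 to 127660957), was the most abundant STAT transcript in both groups, above 95.3% of symbols in MHCII-hi and 95.6% in MHCII-lo. It stood at 32.50, 33.71 and 32.29 FPKM in MHCII-hi and 35.73, 34.29 and 37.55 FPKM in MHCII-lo libraries. The groups did not overlap, but the lowest MHCII-lo library was close to the highest MHCII-hi library. The log2 change was -0.12 (SE 0.04, limma adjusted p = 0.0324). The adjusted p was 0.0880 without MHCII-hi replicate 1, 0.0903 without MHCII-hi replicate 3, 0.0708 without MHCII-lo replicate 1 and 0.0847 without MHCII-lo replicate 3. Scaled without immunoglobulin genes the log2 change was 0.05, so that neither the call nor the direction of Stat6 held across settings.

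**Figure D2:**
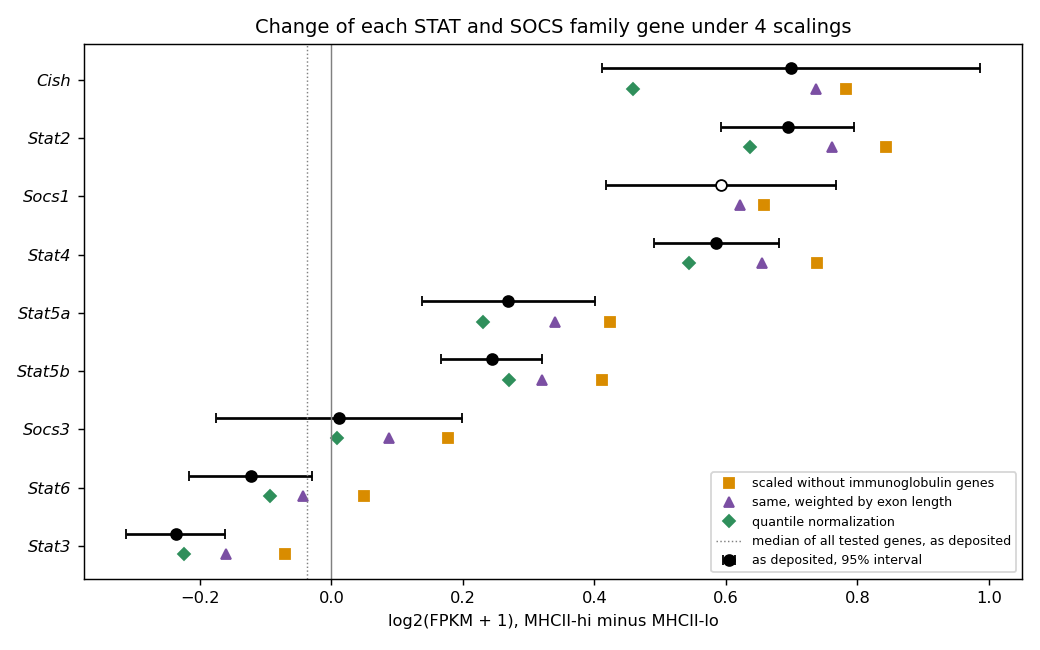
Log2 change of each gene (horizontal axis, MHCII-hi less MHCII-lo, log2(FPKM + 1) scale): black circles with 95% intervals as deposited, coloured symbols under 3 other scalings. Socs1 is drawn open because it lay under the expression minimum, its interval comes from a fit with no minimum, and it has no quantile-normalized value. Stat2 and Stat4 stay at or above 0.54 under all 4, while Stat6 crosses 0 and Stat3 comes within 0.07 of it.

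The order of the STAT transcripts differed between the groups. In MHCII-hi it was Stat6, Stat5b, Stat3, Stat4, Stat5a and Stat2, and in MHCII-lo it was Stat6, Stat3, Stat5b, Stat5a, Stat4 and Stat2. Libraries of neighbouring genes in these orders did not overlap within a group, except Stat5a and Stat2 in MHCII-hi. Summed over the 6 STAT genes, FPKM came to 91.5 ± 0.842 in MHCII-hi and 86.4 ± 1.45 in MHCII-lo, 5.84% higher in MHCII-hi. Shares of that sum are free of library scaling. Stat2 made up 7.92% ± 0.317 of the sum in MHCII-hi and 4.74% ± 0.139 in MHCII-lo, and Stat4 made up 8.82% ± 0.138 in MHCII-hi and 5.84% ± 0.248 in MHCII-lo. Stat6 made up 35.9% ± 0.517 in MHCII-hi and 41.5% ± 1.2 in MHCII-lo, and Stat3 16.7% ± 0.225 in MHCII-hi and 21.0% ± 0.722 in MHCII-lo. No STAT share overlapped between the groups, where the FPKM of 65.8% of all tested genes did not overlap. The shares of a library add up to a fixed whole, so higher shares of some genes lower those of others. Lower shares of Stat6 and Stat3 therefore do not by themselves show less of their RNA.

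**Figure D3:**
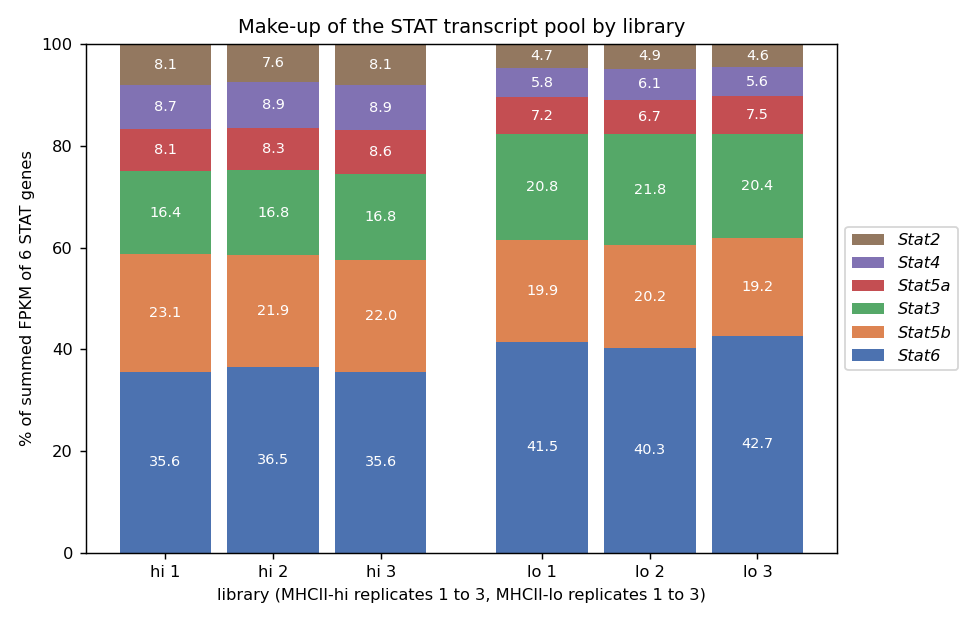
Share of each STAT gene in the summed FPKM of the 6 STAT genes (vertical axis, percent), one bar per library, MHCII-hi libraries on the left and MHCII-lo libraries on the right. The Stat2 and Stat4 segments are wider in each MHCII-hi library, and the Stat6 segment is between 35.59% and 36.49% in MHCII-hi and between 40.26% and 42.66% in MHCII-lo.

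Cish encodes CIS, the inhibitor best known as a target of STAT5 (chromosome 9, 107296026 to 107302784). Cish stood at 1.43, 1.16 and 1.88 FPKM in MHCII-hi and 0.52, 0.55 and 0.50 FPKM in MHCII-lo libraries. All MHCII-hi libraries were more than double any MHCII-lo library, but they varied among themselves more than for any STAT gene, with a coefficient of variation of 24.4% in MHCII-hi and 4.81% in MHCII-lo. The means of 1.49 ± 0.364 in MHCII-hi and 0.523 ± 0.0252 FPKM in MHCII-lo differed 2.85-fold, and the log2 change was 0.70 (SE 0.12, limma adjusted p = 0.00243). With a pseudocount of 0.1 the log2 change was 1.33. At the estimated depth, Cish rested on between 23.8 and 46.9 fragments per kilobase in MHCII-hi and between 11.8 and 13.3 in MHCII-lo. An antisense gene overlaps it over 1459 bases and is not analysed here.

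Socs1, the inhibitor that blocks JAK kinases after interferon and interleukin-2 family signals (chromosome 16, 10782240 to 10785536), was scarce. It stood at 0.87, 1.11 and 0.98 FPKM in MHCII-hi and 0.31, 0.33 and 0.31 FPKM in MHCII-lo libraries. Each MHCII-hi library was well above each MHCII-lo library, and the means of 0.987 ± 0.12 in MHCII-hi and 0.317 ± 0.0115 FPKM in MHCII-lo differed 3.12-fold. The mean over all libraries lay under 1 FPKM, so Socs1 was not tested with the others. In a fit with no minimum, where 14.6% of 27171 genes were higher and 13.8% lower, its log2 change was 0.59 (SE 0.07, limma adjusted p = 0.00169). Its values rested on between 22.7 and 28.5 estimated fragments per kilobase in MHCII-hi and between 7.03 and 7.99 in MHCII-lo, a thin base.

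Socs3, the inhibitor that binds the gp130 and G-CSF receptors (chromosome 11, 117966079 to 117970047), was the most abundant inhibitor of the set and showed no detectable difference. It stood at 14.63, 12.62 and 13.13 FPKM in MHCII-hi and 12.48, 12.77 and 14.82 FPKM in MHCII-lo libraries. The groups overlapped throughout, with means of 13.5 ± 1.04 in MHCII-hi and 13.4 ± 1.28 FPKM in MHCII-lo. The log2 change was 0.01 with a 95% interval from -0.18 to 0.20 (limma adjusted p = 0.909). Relative to Socs3 within each library, Cish stood at 0.0977, 0.0919 and 0.143 in MHCII-hi and 0.0417, 0.0431 and 0.0337 in MHCII-lo, a log2 difference of 1.47. Socs1 relative to Socs3 stood at 0.0595, 0.088 and 0.0746 in MHCII-hi and 0.0248, 0.0258 and 0.0209 in MHCII-lo, a log2 difference of 1.62. Neither pair of groups overlapped, and both ratios had a two-sided exact permutation p of 0.1, the smallest that 3 against 3 allows (0.15 when adjusted over the 3 ratios computed).

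The promoters of the inhibitors and of Stat2 are shown because they hold the letters that STAT complexes are known to bind. RefSeq windows of 300 bases, from 250 before to 50 after the annotated start in GRCm38.p6, were found for all 9 genes, 12 windows in all. They were searched on both strands for TTCNNNGAA, the core that STAT dimers bind, and GAAANNGAAA, the core bound by ISGF3 and interferon regulatory factors. These motifs occurred in 8.30% and 3.44% of all 32851 windows. Capitals mark the matches, and each sequence runs 5′ to 3′ on the strand of its gene.
Cish, chr9:107296409-107296708, plus strand: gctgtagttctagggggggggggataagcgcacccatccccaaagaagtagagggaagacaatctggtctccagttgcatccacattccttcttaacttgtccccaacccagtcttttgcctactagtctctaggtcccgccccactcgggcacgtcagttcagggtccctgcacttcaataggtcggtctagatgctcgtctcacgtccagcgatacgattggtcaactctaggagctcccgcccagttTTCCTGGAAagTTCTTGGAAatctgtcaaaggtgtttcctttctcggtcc
Socs3, chr11:117969317-117969616, minus strand: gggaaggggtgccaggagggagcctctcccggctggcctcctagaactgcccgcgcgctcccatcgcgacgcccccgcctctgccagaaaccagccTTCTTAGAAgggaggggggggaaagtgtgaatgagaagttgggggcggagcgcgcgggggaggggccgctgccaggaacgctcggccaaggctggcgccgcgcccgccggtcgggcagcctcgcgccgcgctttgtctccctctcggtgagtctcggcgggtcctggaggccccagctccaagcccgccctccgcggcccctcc
Socs1, chr16:10785487-10785786, minus strand: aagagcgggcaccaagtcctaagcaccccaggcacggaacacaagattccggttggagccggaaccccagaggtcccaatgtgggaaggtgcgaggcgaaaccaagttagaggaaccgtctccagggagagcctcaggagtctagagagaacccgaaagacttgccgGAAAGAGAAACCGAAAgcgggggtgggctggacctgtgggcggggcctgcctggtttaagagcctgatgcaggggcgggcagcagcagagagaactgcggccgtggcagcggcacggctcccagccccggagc
Stat2, chr10:128270248-128270547, plus strand: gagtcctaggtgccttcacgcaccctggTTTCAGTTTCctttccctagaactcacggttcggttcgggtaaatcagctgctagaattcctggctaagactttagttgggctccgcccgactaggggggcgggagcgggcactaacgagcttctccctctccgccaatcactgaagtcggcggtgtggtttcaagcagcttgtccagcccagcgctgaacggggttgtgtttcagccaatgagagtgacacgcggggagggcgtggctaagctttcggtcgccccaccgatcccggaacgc
The Cish window held 2 matches to TTCNNNGAA, the first at the annotated start itself and the other beginning 11 bases after it. The Socs3 window held 1, beginning 154 bases before the start. The Socs1 window held 2 matches to GAAANNGAAA that overlap each other, beginning 83 and 77 bases before the start. In Stat2 that motif lay on the opposite strand, 222 bases before the start. One of the windows of Stat4, whose start lies inside the gene, held 1 match to GAAANNGAAA 97 bases before its start. The windows of Stat3, Stat5a, Stat5b and Stat6 held neither. A match describes letters in a window, and Cish and Socs3, which both hold TTCNNNGAA, had log2 changes of 0.70 and 0.01.

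Upstream of the STATs, the kinase Jak2, which serves the erythropoietin, thrombopoietin and interleukin-3 receptors, was higher at 33.35, 32.34 and 32.45 FPKM in MHCII-hi and 21.72, 20.88 and 20.59 FPKM in MHCII-lo libraries (log2 change 0.61, limma adjusted p = 7.93e-06). The libraries of the groups were far apart. Of the 4 JAK kinases, 2 were higher, 0 were lower and 2 did not pass, with a median log2 change of 0.08, where 58.6% of all tested genes passed in either direction. Jak1 passed narrowly, at 37.2 ± 0.386 in MHCII-hi and 35.2 ± 0.474 FPKM in MHCII-lo (limma adjusted p = 0.0329). That call was lost without MHCII-hi replicates 1, 2 or 3 (0.0536, 0.0774 and 0.0836) and without MHCII-lo replicates 1 or 2 (0.0879 and 0.0900). Jak3, the kinase paired with the common gamma chain, stood at 10.1 ± 0.354 in MHCII-hi and 11.2 ± 1.07 FPKM in MHCII-lo, and Tyk2 at 11.5 ± 0.0404 in MHCII-hi and 10.8 ± 0.381 FPKM in MHCII-lo.

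Most cytokine transcripts were scarce. Of 25 listed cytokines 23 were in the tables and 15 of these lay under the minimum, while 5 of the 8 tested were higher, 0 lower and 3 did not pass (median log2 change 0.35), where 25.5% of all tested genes were higher and 33.1% lower. The most abundant was Osm (oncostatin M), an interleukin-6 family ligand, at 86.5 ± 0.611 in MHCII-hi and 93.2 ± 6.04 FPKM in MHCII-lo, which did not pass (limma adjusted p = 0.0894). Il6, another ligand of that family, stood at 22.4 ± 0.285 in MHCII-hi and 11.2 ± 1.58 FPKM in MHCII-lo. Ifng, the T and NK cell cytokine, stood at 5.20, 5.40 and 6.28 FPKM in MHCII-hi and 0.96, 2.32 and 0.94 FPKM in MHCII-lo libraries, and Il4, a T cell, basophil and mast cell cytokine, at 3.20 ± 0.361 in MHCII-hi and 1.12 ± 0.400 FPKM in MHCII-lo. The groups did not overlap for Il6, Ifng or Il4. Basophil, mast cell and eosinophil markers also differed, with 11 of 12 higher and sums between 7574.2 and 7724.8 FPKM in MHCII-hi and between 3018.2 and 3041.1 FPKM in MHCII-lo, and their part in the cytokine values was not tested.

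Receptors moved in both directions, where 25.5% of all tested genes were higher and 33.1% lower. In the interleukin-2 family with interleukin-13, 3 of 8 tested were higher and 2 lower. The interleukin-2 and interleukin-15 receptor chain Il2rb, also one of the T and NK cell markers, stood at 15.9 ± 0.936 in MHCII-hi and 3.04 ± 0.122 FPKM in MHCII-lo, and the interleukin-7 receptor Il7r at 6.39 ± 0.216 in MHCII-hi and 1.84 ± 0.223 FPKM in MHCII-lo. Against these, Il13ra1, a chain of the receptor that feeds STAT6, stood at 8.12 ± 0.444 in MHCII-hi and 17.3 ± 0.662 FPKM in MHCII-lo, 2.13-fold lower in MHCII-hi (limma adjusted p = 6.08e-06). Another STAT6 receptor chain, Il4ra, was lower too, at 11.2 ± 0.327 in MHCII-hi and 17.7 ± 0.944 FPKM in MHCII-lo. The common gamma chain Il2rg, of the same list, was higher, at 28.3 ± 1.42 in MHCII-hi and 13.4 ± 1.04 FPKM in MHCII-lo (limma adjusted p = 1.63e-05). In the interleukin-6 and G-CSF family 3 of 6 tested were higher and 2 lower. The shared subunit Il6st (gp130) stood at 7.08 ± 0.356 in MHCII-hi and 4.60 ± 0.290 FPKM in MHCII-lo, and Il27ra at 2.49 ± 0.262 in MHCII-hi and 1.05 ± 0.242 FPKM in MHCII-lo, while the G-CSF receptor Csf3r, also one of the neutrophil markers, stood at 49.3 ± 0.930 in MHCII-hi and 87.8 ± 1.16 FPKM in MHCII-lo.

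Among receptors that use STAT5, 2 of 7 tested were higher and 3 lower. Il5ra, an eosinophil marker, stood at 5.58 ± 0.140 in MHCII-hi and 1.68 ± 0.177 FPKM in MHCII-lo. The shared beta chains Csf2rb and Csf2rb2, which are close copies whose reads may be mixed, were lower, with log2 changes of -0.52 and -0.30 (-0.35 and -0.14 when scaled without immunoglobulin genes). Of the interferon, interleukin-10 and interleukin-12 receptor genes 3 of 6 tested were higher and 3 lower (all tested genes 25.5% and 33.1%). Scaled without immunoglobulin genes, 3 were higher and 0 lower (all tested genes 40.5% and 17.6%). With immunoglobulin genes left out by FPKM times length, 3 were higher and 3 lower (all tested genes 31.6% and 25.6%). Il10ra, the chain of the interleukin-10 receptor that recruits STAT3, stood at 17.1 ± 0.621 in MHCII-hi and 8.39 ± 1.12 FPKM in MHCII-lo. Ifnar2, the type I interferon receptor chain, stood at 25.5 ± 0.196 in MHCII-hi and 20.8 ± 0.950 FPKM in MHCII-lo. The interferon gamma receptor chain Ifngr1 had a log2 change of -0.16, which was 0.02 when scaled without immunoglobulin genes. With immunoglobulin genes left out by FPKM times length it was -0.08 (limma adjusted p = 0.0229).

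Of the remaining STAT and SOCS genes, 1 of 5 tested was higher, Socs7 (log2 change 0.34, limma adjusted p = 0.00682), and 1 was lower, Socs4 (-0.23, limma adjusted p = 0.00867). Scaled without immunoglobulin genes, 3 were higher and 0 lower, and Socs4 was at -0.08 (limma adjusted p = 0.219). With immunoglobulin genes left out by FPKM times length, 2 were higher and 1 lower. Socs4 was then at -0.16 (limma adjusted p = 0.035). Socs2, another STAT5-linked inhibitor, was under the minimum at 0.44, 0.40 and 0.50 FPKM in MHCII-hi and 0.08, 0.07 and 0.03 FPKM in MHCII-lo libraries, which did not overlap. Of 13 phosphatases, PIAS proteins and other restraints, 6 were higher and 4 lower, against 25.5% and 33.1% of all tested genes. Scaled without immunoglobulin genes, 9 were higher and 0 lower, against 40.5% and 17.6%. With immunoglobulin genes left out by FPKM times length, 7 were higher and 3 lower, against 31.6% and 25.6%. Among those higher as deposited, Usp18 reached the minimum through MHCII-hi alone, so its call could only be upward. The ubiquitin ligase Cblb stood at 5.26 ± 0.260 in MHCII-hi and 2.92 ± 0.131 FPKM in MHCII-lo, and the phosphatase Ptpn6 (SHP-1) at 73.2 ± 1.79 in MHCII-hi and 86.2 ± 1.77 FPKM in MHCII-lo. The log2 change of Ptpn6 was -0.23, and -0.06 with the call lost (limma adjusted p = 0.109) when scaled without immunoglobulin genes. Left out by FPKM times length, immunoglobulin genes took it to -0.15 with the call kept (limma adjusted p = 0.00316). The JAK2 adaptor Sh2b3 (LNK) was higher, with a log2 change of 0.31.

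**Figure D4:**
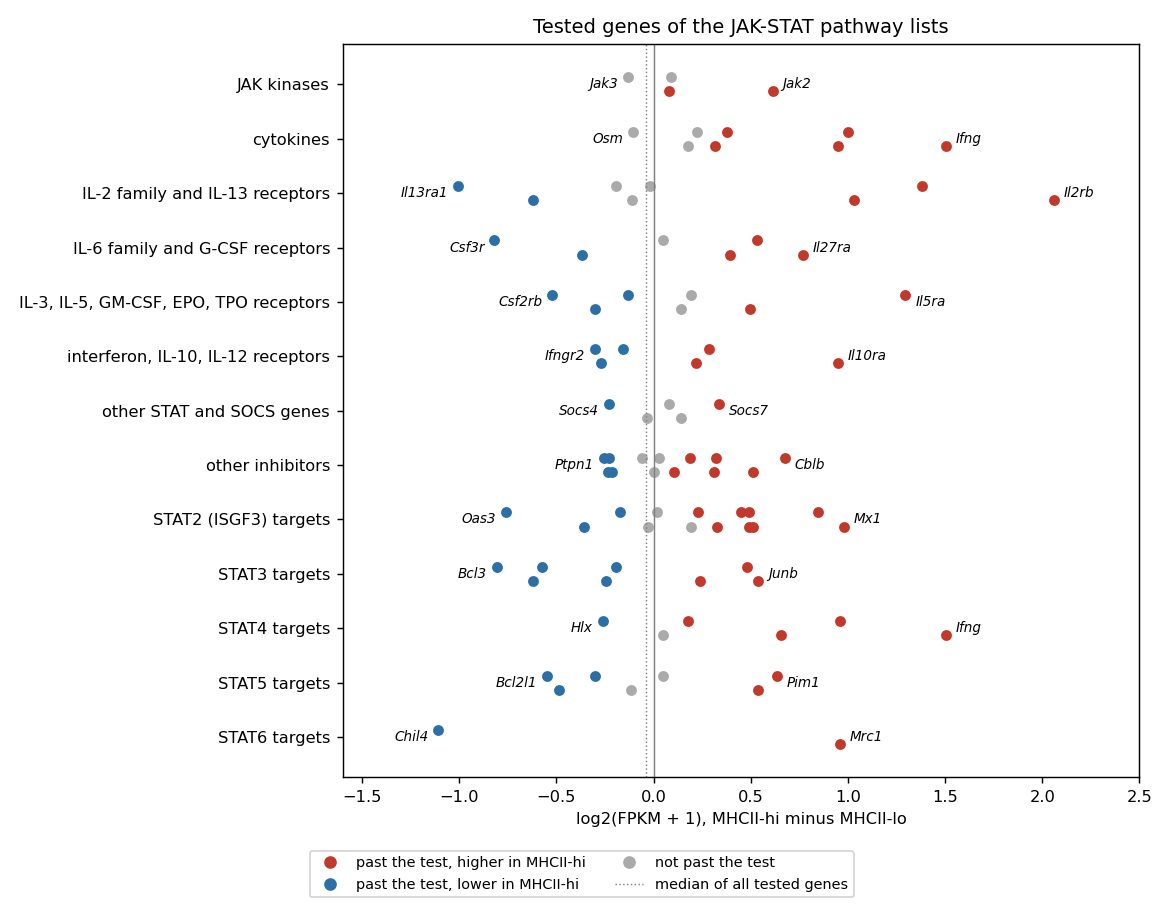
Log2 change (horizontal axis, MHCII-hi less MHCII-lo, log2(FPKM + 1) scale) of each tested gene of 13 lists of the JAK-STAT pathway, one point per gene, red where higher, blue where lower and grey where not past the limma test. The lowest and highest gene of each list are named. Most lists hold genes on both sides of 0, and The points run from Chil4 at -1.11, which reached the expression minimum through MHCII-lo alone, to Il2rb at 2.06.

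Lists of genes known as STAT targets held members that moved in both directions. Over the 13 pathway lists, 41 of 91 tested genes were higher and 27 lower, with a median log2 change of 0.11, against 25.5% higher, 33.1% lower and a median of -0.04 over all tested genes. Scaled without immunoglobulin genes, 52 were higher and 15 lower, where 40.5% of all tested genes were higher and 17.6% lower. Of the 91, 7 reached the minimum through 1 group alone, which fixed the direction any call could take, and the other 84 held 37 higher and 26 lower. Of 14 tested ISGF3 targets, the genes linked to STAT2, 8 were higher and 3 lower (median log2 change 0.28), beside the same 25.5% and 33.1%. Of those higher, Usp18 and Oasl1 reached the minimum through MHCII-hi alone, so their calls could only be upward. Their MHCII-lo means were 0.967 FPKM (Usp18) and 0.947 FPKM (Oasl1). The antiviral GTPase Mx1 stood at 4.54 ± 0.132 in MHCII-hi and 1.81 ± 0.221 FPKM in MHCII-lo, and Irf9, the DNA-binding part of ISGF3, at 10.2 ± 0.0702 in MHCII-hi and 7.17 ± 0.372 FPKM in MHCII-lo. In the other direction Oas3, a sensor of viral RNA, stood at 2.76 ± 0.0252 in MHCII-hi and 5.39 ± 0.603 FPKM in MHCII-lo.

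Beside the target counts that follow, 25.5% of all tested genes were higher and 33.1% lower. Of 8 tested genes linked to STAT3, 3 were higher and 5 lower. Those higher included Fos, at 631 ± 5.61 in MHCII-hi and 452 ± 3.08 FPKM in MHCII-lo, whose log2 change of 0.48 became -0.02 under quantile normalization, and Junb at 272 ± 10.3 in MHCII-hi and 187 ± 4.93 FPKM in MHCII-lo, both immediate early genes. Junb had a log2 change of 0.54, and 0.16 under quantile normalization. Bcl3, an NF-kappa B cofactor, was lower with a log2 change of -0.81. Of 6 tested genes linked to STAT4, 4 were higher and 1 lower. Ifng, described above, had the largest log2 change of these at 1.51. The interleukin-18 receptor Il18r1, with the smallest p of the list, stood at 5.75 ± 0.331 in MHCII-hi and 3.28 ± 0.110 FPKM in MHCII-lo. Tbx21, which encodes the T-bet factor of T and NK cells and reached the minimum through MHCII-hi alone, stood at 1.88 ± 0.186 in MHCII-hi and 0.483 ± 0.168 FPKM in MHCII-lo. The T and NK cell markers described above moved with them, and their part was not tested. Of 7 tested genes linked to STAT5, 2 were higher and 3 lower: the survival kinase Pim1 stood at 111 ± 1.52 in MHCII-hi and 71.0 ± 1.35 FPKM in MHCII-lo, Bcl2l1 at 3.85 ± 0.0611 in MHCII-hi and 6.10 ± 0.563 FPKM in MHCII-lo, and Gfi1 at 23.4 ± 1.80 in MHCII-hi and 33.2 ± 2.15 FPKM in MHCII-lo. For STAT6 only 2 of 8 listed genes could be tested, Mrc1 at 1.68 ± 0.0265 in MHCII-hi and 0.380 ± 0.118 FPKM in MHCII-lo, and Chil4 at 0.263 ± 0.0351 in MHCII-hi and 1.77 ± 0.668 FPKM in MHCII-lo. Mrc1 reached the minimum only through MHCII-hi and Chil4 only through MHCII-lo, so the direction of both calls was fixed by the minimum.

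The genes with the most similar profiles were sought among 10100 named tested genes by the distance between mean-centred log2(FPKM + 1) values over the 6 libraries. Cish and Stat3 were taken because their log2 changes as deposited were the highest and the lowest of the members, although Cish exceeded Stat2 only narrowly (0.70 and 0.69) and was below it when scaled without immunoglobulin genes (0.78 and 0.84). Nearest to Cish were Xlr4b (distance 0.112), Helz2 (0.169) and Slc7a8 (0.174). Xlr4b stood at 3.26, 2.79 and 3.67 FPKM in MHCII-hi and 1.5, 1.64 and 1.62 FPKM in MHCII-lo libraries, lowest in MHCII-hi replicate 2 as Cish was. Nearest to Stat3 were the ribosomal protein gene Rpl36 (0.0201), Parg (0.0293) and Slc35e1 (0.0355). With 2 groups and 6 libraries such nearness is set largely by a like difference between the groups.

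Markers of further cell types differed between the groups beside all of these values. Of 66 markers tested over the 8 lists, 16 reached the minimum through MHCII-hi alone, so their calls could only be upward. Over all tested genes 25.5% were higher and 33.1% lower. All 8 plasma cell markers were higher and summed to between 1506.6 and 1520.3 FPKM in MHCII-hi and between 79.2 and 82.4 FPKM in MHCII-lo. For B cells 3 of 3 tested were higher, 5 of the 8 listed lay under the minimum and Cr2 was listed at 0 in all MHCII-lo libraries. Dendritic cell markers were higher in 8 of 8 cases tested and summed to between 106.8 and 116.3 FPKM in MHCII-hi and between 53.5 and 54.7 FPKM in MHCII-lo. Of 7 tested monocyte and macrophage markers 2 were higher and 5 lower, with sums between 2178.1 and 2245.4 FPKM in MHCII-hi and between 3203.2 and 3219.4 FPKM in MHCII-lo. Of the 10 stem cell markers 5 were tested, 4 of them higher, and the list summed to between 54.7 and 60.5 FPKM in MHCII-hi and between 18.8 and 19.1 FPKM in MHCII-lo, most of it Ly6a and Kit. The part of any of these in the STAT and SOCS values was not tested.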

How the data were processed

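Per the labels' protocols, sorted cells gave RNA for strand-marked mRNA sequencing. Tools named in the submitters' processing notes are StringTie, HISAT2 and fastp, with builds GRCm38 and mm10; their versions and settings were not given in the sources used here. For each gene and library the authors deposited 1 value, read here as FPKM, since the headers state no unit, the values are not whole and libraries sum to between 332289 and 383600.

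Of 30803 rows, 70 sharing a symbol with a higher row were dropped. The 12110 genes averaging 1 FPKM or more entered limma 3.58.1 (R 4.3.3) as log2(FPKM + 1), using an intensity trend without covariates. Tests were two-sided, Benjamini-Hochberg adjusted, with a threshold of 0.05. This scale understates changes of low genes, and FPKM depends on the total of its library. Ratios were tested by exact permutation over libraries (scipy 1.17.1). The members, lists and tests were chosen with earlier results of these data known. Genes named were the 9 members, up to 3 genes with the smallest p among those past the test in each of 13 pathway lists, and the 3 nearest genes to Cish and Stat3. Jak3, Tyk2, Osm, Il4ra, Il2rg, Socs2, Usp18, Oasl1, Cd28, Klrb1c and Ncr1 were named after their values were seen. Coordinates are from GENCODE M21 (GRCm38) and promoters from RefSeq.

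Depth came from steps in single-exon genes with 1 transcript and 100 to 1000 bases, sought within a fixed window. Squared differences between replicates had a median 2.64 to 3.03 times that of counting noise, so each replicate was counted. Data were simulated with the spread of this comparison (12110 genes, 50 changed per size). There limma called 28% of genes changed 1.25-fold, 74% at 1.5-fold, 80% at 2-fold and 92% at 4-fold, with 9 false calls. Far fewer genes were changed there than the 58.6% called in the data, so these rates need not hold for the data. Alternatives tried were leaving out each library, blocking by replicate number, a pseudocount of 0.1, no minimum and a minimum of 5 FPKM, 4 scalings and limma without trend.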

Additional observations from a re-analysis of the deposited data

How the results depend on the processing

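Stat2, Stat4, Stat5a and Stat5b kept their direction and their call under all alternatives run. Cish, whose direction the minimum fixed, is not counted with them, and a minimum of 5 FPKM left it out. The number of STAT and SOCS genes called lower was 2 as reported, 1 with no minimum, the replicate block, upper-quartile scaling, quantile normalization, limma without trend or scaling without immunoglobulin genes weighted by exon length (chosen after seeing the data), and 0 when scaled without immunoglobulin genes. It lay between 1 and 2 when each library was left out in turn. The gene lost was Stat6, whose adjusted p ranged from 0.0180 to 0.367 over the alternatives and whose log2 change was 0.05 scaled without immunoglobulin genes, which also took the call of Stat3. Socs3, never called, had log2 changes between -0.046 and 0.083 over the libraries left out, below 0 without MHCII-hi replicate 1, MHCII-lo replicate 1 or MHCII-lo replicate 2. Over all genes 1792 were higher with a minimum of 5 FPKM, where fewer genes were tested, and 4901 higher and 2131 lower scaled without immunoglobulin genes, against 3084 and 4009 as reported. Pathway genes called higher numbered 20 with a minimum of 5 FPKM in place of 41, and those called lower 15 scaled without immunoglobulin genes in place of 27. Of 68 pathway genes past the test, 3 changed sign under a scaling: Fos (-0.023, quantile), Ifngr1 (0.02) and Csf2ra (0.04), the last pair scaled without immunoglobulin genes. The Stat5b to Stat5a ratio difference was 0.01 without MHCII-lo replicate 2, between -0.108 and 0.01 over the libraries left out. Same-numbered libraries did not deviate together (correlations from -0.09 to -0.004), but 3 libraries a group cannot settle whether the numbers pair them. With the replicate block 1 of the 2 lower members was called, and the ratio differences were unchanged with an exact sign-flip p of 0.25 for Socs1 and Cish to Socs3, the smallest that 3 pairs allow. The low fragment counts limit Socs1 and Cish. What lies behind the dependence on scaling was not tested.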
